A study of Mus musculus with 18 samples.

Results

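Linear ubiquitin chains and the kinase complex that reads them are encoded by 10 genes followed here, of 50686 gene identifiers in the count table. They are Rnf31, Rbck1 and Sharpin, the subunits of the linear ubiquitin chain assembly complex (LUBAC), then Otulin, Cyld, Tnfaip3 and Tnip1, which cut or cap ubiquitin chains or hold the proteins that do, and Chuk, Ikbkb and Ikbkg, the subunits of the IκB kinase (IKK) complex. The genes were chosen by name, with earlier results of these data known, and each was found by its Ensembl identifier. Messenger RNA was counted in primary microglia, the resident macrophages of the brain, cultured from forebrains of C57BL/6 mouse pups at postnatal day 2. Cultures were kept for 7 days before and 7 days after a change of medium, and the microglia were then shaken off and collected. There were 18 libraries of 6 genotypes, 3 for each. The first genotype was Tbk1+/-;Tak1ΔM/+;Ripk1D138N/+, called Tbk1 Tak1 Ripk1 below. The others were Tbk1+/-;Tak1ΔM/+ (called Tbk1 Tak1), Tbk1+/-;Ripk1D138N/D138N (called Tbk1 Ripk1), Tak1ΔM/+, Tbk1+/- and wild type (WT). TBK1 and TAK1 are kinases that hold back RIPK1, and D138N is an amino acid change that removes the kinase activity of RIPK1. The labels define neither ΔM nor the cells or driver of that deletion, and they do not tell whether separate animals or cultures gave the replicates, so p-values measure only how the libraries spread.

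When tumour necrosis factor (TNF) binds its receptor, ubiquitin ligases build chains on RIPK1 and other proteins of the receptor complex. LUBAC adds chains in which ubiquitins are joined head to tail. HOIP, the product of Rnf31, is its catalytic subunit, and HOIL-1 (Rbck1) and SHARPIN support it. NEMO (Ikbkg) binds these chains and brings the kinases IKKα (Chuk) and IKKβ (Ikbkb), which release the transcription factor NF-κB and also phosphorylate RIPK1. TBK1 reaches the same complex through NEMO and its adaptors, and TAK1 activates IKK. OTULIN cuts linear chains only, CYLD cuts linear and other chains, and A20 (Tnfaip3), a product of an NF-κB target gene, works with ABIN1 (Tnip1) to end the signal. In microglia and other macrophages this pathway controls both inflammatory genes and cell death.

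Totals ranged from 8016559 counts in Tbk1 Tak1 replicate 2 to 22989116 in Tbk1 Tak1 Ripk1 replicate 3, and a member had between 44 and 2299 counts in a library. All 10 members passed the filter on low counts, among 13447 genes tested. The 10 microglia markers summed to between 7079 and 9025 counts per 1000000 (CPM) in a library, with Csf1r between 1619 and 2658 CPM, while Tmem119 (1.45 to 6.56 CPM) and P2ry12 (2.97 to 17.4 CPM), markers of resting microglia in the brain, were low. Summed markers reached at most 62.3 CPM for astrocytes, 88.6 CPM for the oligodendrocyte lineage, 12.8 CPM for neurons and 47.4 CPM for fibroblasts, mural and endothelial cells. Tbk1 RNA went against the label in 5 libraries labelled Tbk1+/-. It was at 123, 107 and 115 CPM in Tbk1 Tak1 Ripk1 and at 130 and 131 CPM in Tbk1 Ripk1 replicates 1 and 3, against 106, 104 and 149 CPM in WT. In Tbk1 Tak1 (55.1, 56.4 and 66.0 CPM), Tbk1+/- (50.5, 65.6 and 57.1 CPM) and Tbk1 Ripk1 replicate 2 (54.9 CPM) it was lower than in every WT library. Wherever these 5 libraries are used below, the genotype is the one on the label. Map3k7, which encodes TAK1, averaged 9.61 ± 2.37 CPM in Tbk1 Tak1 Ripk1, 11.3 ± 4.62 in Tbk1 Tak1, 8.76 ± 1.33 in Tak1ΔM/+ and 13.5 ± 4.94 in WT (SD, n = 3 each). Its 3 Tak1ΔM/+ libraries lay below the 3 of WT, with a log2 difference of -0.62 and an adjusted p of 0.565, while Tbk1 Tak1 overlapped with WT. The share of counts from mitochondrially encoded protein-coding genes was 0.367% to 0.512% in the Tbk1 Tak1 libraries and 1.82% to 2.20% in the Tbk1+/- libraries, with the other 4 genotypes between 0.370% and 1.62%.

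Promoters are shown for 5 members, the pair that rose in comparisons given below (Chuk and Rnf31) and the members whose window holds a κB site, the sequence NF-κB binds. Of the 10 members 8 matched the RefSeq promoter table (GRCm38.p6), all but Sharpin and Ikbkb. Each sequence is the 250 bases before the first listed start, 5′ to 3′ on the gene's strand, with capitals for any match on either strand to 4 motifs: the κB consensus, the interferon-stimulated response element (GAAA, 2 bases of any kind, GAAA), the Sp1 box GGGCGG and CCAAT. Overlapping matches run together in the capitals.
Rnf31 promoter, chr14:55591492-55591741, plus strand: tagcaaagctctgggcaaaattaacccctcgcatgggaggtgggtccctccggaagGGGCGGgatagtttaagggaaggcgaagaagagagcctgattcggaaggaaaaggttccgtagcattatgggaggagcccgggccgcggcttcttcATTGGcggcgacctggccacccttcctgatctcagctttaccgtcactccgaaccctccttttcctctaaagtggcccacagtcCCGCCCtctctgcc
Cyld promoter, chr8:88696778-88697027, plus strand: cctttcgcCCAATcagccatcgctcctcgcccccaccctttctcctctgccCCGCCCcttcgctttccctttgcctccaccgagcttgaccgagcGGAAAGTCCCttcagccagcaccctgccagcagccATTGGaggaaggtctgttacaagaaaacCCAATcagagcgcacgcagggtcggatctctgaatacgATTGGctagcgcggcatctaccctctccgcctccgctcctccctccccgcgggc
Tnfaip3 promoter, chr10:19015411-19015660, minus strand: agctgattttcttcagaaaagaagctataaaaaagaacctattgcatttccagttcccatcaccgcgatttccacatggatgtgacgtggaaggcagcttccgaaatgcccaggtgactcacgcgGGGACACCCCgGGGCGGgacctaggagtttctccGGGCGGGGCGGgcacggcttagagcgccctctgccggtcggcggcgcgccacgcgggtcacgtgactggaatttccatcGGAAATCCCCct
Tnip1 promoter, chr11:54962941-54963190, minus strand: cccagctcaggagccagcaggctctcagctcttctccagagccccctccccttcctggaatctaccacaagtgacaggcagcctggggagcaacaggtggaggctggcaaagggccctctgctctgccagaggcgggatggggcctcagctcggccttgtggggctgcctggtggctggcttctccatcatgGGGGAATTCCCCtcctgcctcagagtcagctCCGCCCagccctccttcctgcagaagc
Chuk promoter, chr19:44107478-44107727, minus strand: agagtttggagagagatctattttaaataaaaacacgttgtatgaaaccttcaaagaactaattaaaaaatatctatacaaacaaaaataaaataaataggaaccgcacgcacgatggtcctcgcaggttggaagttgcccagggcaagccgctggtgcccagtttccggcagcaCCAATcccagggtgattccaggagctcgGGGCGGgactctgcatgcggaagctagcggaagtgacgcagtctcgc
Across 32851 mouse promoters of this length, the κB consensus occurred in 7.25%, the response element in 2.98%, GGGCGG in 32.7% and CCAAT in 33.8%. Tnfaip3 had a pair of separate κB matches, starting 125 and 12 bases before the start, and Tnip1 had 3 that overlap each other, the first 58 bases before it. Cyld had 1, which began 155 bases before the start, and also 4 CCAAT boxes. Chuk and Rnf31 had an Sp1 box and a CCAAT box each, Rnf31 with a second Sp1 box 14 bases before the start, and neither had a match to the κB consensus or the response element in this window. Of the 8 members, the one with the response element was Rbck1, 21 bases before its second listed start. These matches describe letters and not binding.

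Per kilobase of exon, the genes of LUBAC's accessory subunits had the highest means over all 18 libraries. Rbck1 averaged 16.4 ± 2.87 CPM per kb of merged exons and Sharpin 11.6 ± 1.99 (SD over 18 libraries). Ikbkg followed at 9.24 ± 1.91 and Tnip1 at 8.62 ± 1.27. Sharpin, Ikbkg and Tnip1 overlapped with their neighbours within their SDs, and in Tbk1+/- Ikbkg (12.6 ± 1.33 CPM per kb) was above Sharpin (9.49 ± 0.705). Next came Tnfaip3 at 6.89 ± 1.64. Chuk (5.46 ± 3.02), Rnf31 (4.67 ± 1.16), Otulin (4.21 ± 1.08), Cyld (4.13 ± 0.633) and Ikbkb (4.04 ± 0.663) could not be ordered beyond their spread. Ikbkb depended on the length used: its merged exons span 19078 bases, its principal transcript 3580, and over the latter it averaged 21.5 ± 3.53 CPM per kb, the third highest. On the same scale Rbck1 (31.7 ± 5.54) and Sharpin (25.5 ± 4.39) again had the highest means, and HOIP's gene was at 7.68 ± 1.90 CPM per kb, below both partners. Chuk varied most across libraries, 5.41-fold in CPM between its highest and lowest, followed by Otulin at 3.38-fold, Tnfaip3 at 2.52-fold and Rnf31 at 2.38-fold. The other 6 members varied by 1.65-fold to 1.99-fold.

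**Figure D1:**
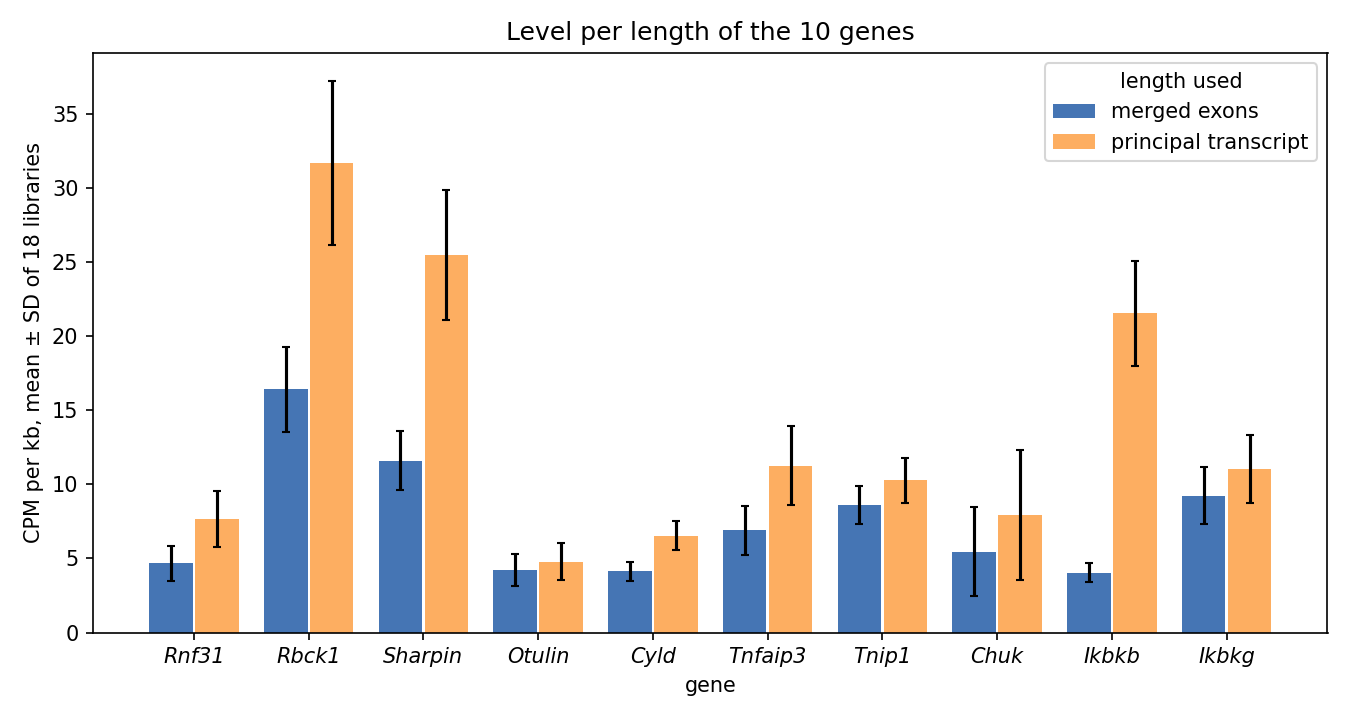
Mean level of each of the 10 genes in CPM per kb, over merged exons and over the principal transcript; bars are means over the 18 libraries and lines are SDs. Rbck1 and Sharpin have the highest means on both lengths, and Ikbkb moves from 4.04 to 21.5 CPM per kb.

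Across the 6 genotypes, Chuk, Rnf31 and Ikbkg differed and the other 7 members did not pass the test. The overall test of edgeR gave adjusted p = 0.0099 for Chuk, 0.0211 for Rnf31 and 0.0272 for Ikbkg, so 3 of 10 members were called, beside 7.59% of all genes tested. Tnfaip3 was next (unadjusted p = 0.0338, adjusted p = 0.176), and Tnip1 was the flattest member (adjusted p = 0.962). Chuk and Rnf31 were both highest in Tbk1 Tak1 microglia, and Ikbkg was highest in Tbk1+/- microglia. As these are bulk cultures, a change in the kind of cells and a change of RNA per cell cannot be told apart.

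**Figure D2:**
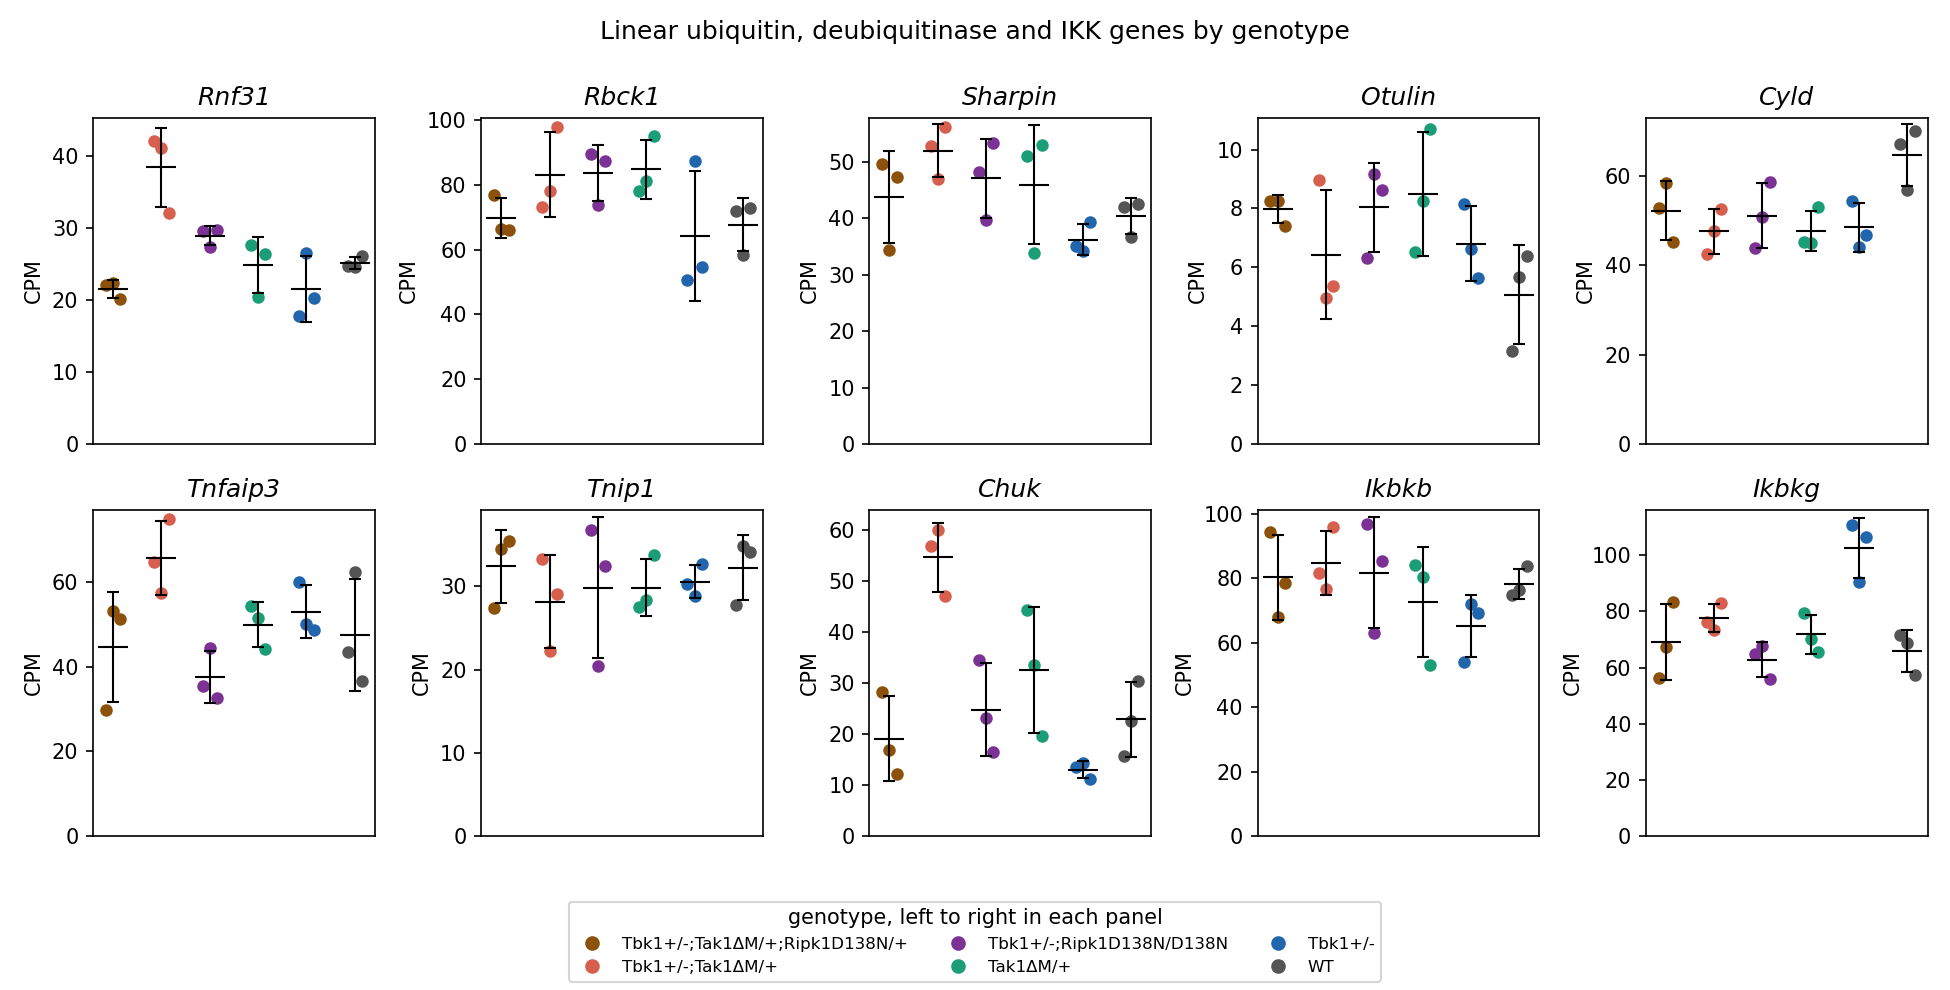
CPM of each of the 10 genes by genotype, 1 point per library, with the mean and SD of 3 libraries in black. The 3 Tbk1 Tak1 libraries are above every other library for Chuk (46.9 to 60.0 CPM) and Rnf31 (32.1 to 42.2 CPM), and the 3 Tbk1+/- libraries are above every other for Ikbkg (90.4 to 111 CPM).

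Of the LUBAC subunit genes, edgeR called that of the catalytic one, and differences between the genes were not tested. Rnf31 (ENSMUSG00000047098, GRCm38 chr14:55591708-55603693, plus strand) had 22.1, 22.4 and 20.2 CPM in Tbk1 Tak1 Ripk1 microglia and 42.2, 41.1 and 32.1 CPM in Tbk1 Tak1. It had 29.7, 27.4 and 29.7 CPM in Tbk1 Ripk1, 27.7, 20.4 and 26.4 in Tak1ΔM/+, 17.7, 26.6 and 20.4 in Tbk1+/-, and 24.8, 24.6 and 26.1 in WT. All 3 Tbk1 Tak1 libraries lay above the 15 others, and Tbk1 Ripk1 was the next highest genotype, with all 3 libraries above Tbk1+/- and above WT. Rnf31 rose in Tbk1 Tak1 against WT by a log2 fold change of 0.61 (SE 0.17, adjusted p = 0.0402) and against Tbk1+/- by 0.83 (SE 0.17, adjusted p = 0.00347), with 3 of 3 libraries above the mean of each. Against Tak1ΔM/+ the difference was 0.63 and missed the threshold (adjusted p = 0.0545). The call against WT sat at the edge of the threshold and ended under 18 of 28 alternative settings, among them limma-voom (adjusted p = 0.0505), while the call against Tbk1+/- ended under 1.

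The other LUBAC subunits passed no test by edgeR. Rbck1 (ENSMUSG00000027466, chr2:152316334-152332653, minus strand) had 73.2, 78.2 and 98.1 CPM in Tbk1 Tak1, against 72.0, 58.5 and 72.9 CPM in WT, which is 83.2 ± 13.1 against 67.8 ± 8.05 (SD, n = 3 each). The log2 difference of 0.30 did not pass the test. Rbck1 averaged 69.8 ± 6.23 CPM in Tbk1 Tak1 Ripk1, 83.7 ± 8.59 in Tbk1 Ripk1, 84.8 ± 9.18 in Tak1ΔM/+ and 64.3 ± 20.1 in Tbk1+/-, where replicate 2 (87.5 CPM) was far above the other two. Sharpin (ENSMUSG00000022552, chr15:76347040-76351111, minus strand) had 52.8, 46.9 and 56.1 CPM in Tbk1 Tak1, 35.2, 34.2 and 39.3 in Tbk1+/-, and 41.9, 36.6 and 42.6 in WT. Its Tbk1 Tak1 libraries did not overlap with those of Tbk1+/- or WT, and the log2 difference from Tbk1+/- of 0.52 just missed the threshold (SE 0.18, adjusted p = 0.0563). The 3 subunit genes had log2 differences of 0.61, 0.30 and 0.37 between Tbk1 Tak1 and WT, of which that of Rnf31 passed.

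Among the deubiquitinase genes and Tnip1, edgeR called no member in any comparison. Otulin (ENSMUSG00000046034, chr15:27542635-27630693, minus strand), the linear chain protease, was the scarcest member in CPM. It had 8.24, 8.27 and 7.42 CPM in Tbk1 Tak1 Ripk1, 8.96, 4.96 and 5.38 in Tbk1 Tak1, 6.30, 9.16 and 8.64 in Tbk1 Ripk1, 6.52, 8.26 and 10.7 in Tak1ΔM/+, 8.15, 6.62 and 5.64 in Tbk1+/-, and 3.17, 5.66 and 6.38 in WT. WT held the lowest library and the lowest mean, and the Tak1ΔM/+ libraries lay above all 3 of WT by a log2 difference of 0.74 (SE 0.32), which did not pass (adjusted p = 0.458). The unadjusted p was 0.0323, and Otulin had between 44 and 169 counts a library. Cyld (ENSMUSG00000036712, chr8:88697028-88751945, plus strand), whose product cuts chains on RIPK1, had its highest mean in WT. It averaged 52.2 ± 6.63 CPM in Tbk1 Tak1 Ripk1, 47.6 ± 5.02 in Tbk1 Tak1, 51.1 ± 7.35 in Tbk1 Ripk1, 47.7 ± 4.55 in Tak1ΔM/+, 48.5 ± 5.40 in Tbk1+/- and 64.7 ± 6.90 in WT (SD, n = 3 each). The 5 log2 differences from WT were -0.31, -0.44, -0.34, -0.44 and -0.42 in the same order, and they share the 3 WT libraries (67.2, 56.9 and 70.0 CPM). None passed; that of Tbk1 Tak1 came nearest (adjusted p = 0.0832) and was called by DESeq2.

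The A20 gene Tnfaip3 (ENSMUSG00000019850, chr10:19000910-19015657, minus strand) was highest in Tbk1 Tak1. It had 29.8, 53.3 and 51.4 CPM in Tbk1 Tak1 Ripk1, 64.8, 57.5 and 75.0 in Tbk1 Tak1, 35.5, 44.6 and 32.7 in Tbk1 Ripk1, 54.4, 51.5 and 44.2 in Tak1ΔM/+, 60.2, 50.2 and 48.7 in Tbk1+/-, and 43.6, 62.5 and 36.7 in WT. The WT libraries spread widely, and their replicate 2 overlapped with Tbk1 Tak1; the log2 difference of 0.47 from WT did not pass (SE 0.22, adjusted p = 0.231). Tbk1 Tak1 Ripk1 did not overlap with Tbk1 Tak1, with a log2 difference of -0.56 (SE 0.22, adjusted p = 0.209). Tbk1 Ripk1 did not overlap with Tbk1+/- either, with a log2 difference of -0.50 (adjusted p = 0.283). Tnip1 (ENSMUSG00000020400, chr11:54910785-54962917, minus strand) encodes ABIN1, which tethers A20 to linear chains. Its genotype means lay between 28.2 ± 5.57 CPM in Tbk1 Tak1 and 32.4 ± 4.40 in Tbk1 Tak1 Ripk1, with WT at 32.2 ± 3.91, and the groups overlapped throughout. Tnfaip3 and Tnip1, which both carry κB matches in the window shown above, thus had log2 differences of 0.47 and -0.19 between Tbk1 Tak1 and WT, neither called.

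Of the IKK complex subunit genes, Chuk and Ikbkb had their highest mean in Tbk1 Tak1 and Ikbkg in Tbk1+/-. Chuk (ENSMUSG00000025199, chr19:44073335-44107480, minus strand), which encodes IKKα, was the most variable member and rose in Tbk1 Tak1. It had 28.3, 16.9 and 12.0 CPM in Tbk1 Tak1 Ripk1, 56.7, 60.0 and 46.9 in Tbk1 Tak1, 34.5, 23.2 and 16.5 in Tbk1 Ripk1, 44.2, 33.5 and 19.6 in Tak1ΔM/+, 13.4, 14.3 and 11.1 in Tbk1+/-, and 15.7, 22.5 and 30.4 in WT. The order of the means was Tbk1 Tak1, Tak1ΔM/+, Tbk1 Ripk1, WT, Tbk1 Tak1 Ripk1 and Tbk1+/-. The Tbk1 Tak1 libraries lay above all the others, the Tbk1+/- libraries below all of WT, and the genotypes between overlapped with their neighbours in that order. Chuk rose in Tbk1 Tak1 against WT by a log2 fold change of 1.25 (SE 0.34, adjusted p = 0.0330) and against Tbk1+/- by 2.07 (SE 0.35, adjusted p = 0.000895), in 3 of 3 libraries each time. Against Tak1ΔM/+ the difference of 0.75 did not pass (SE 0.33, adjusted p = 0.277). The call against WT ended without any 1 of Tbk1 Tak1 replicates 1, 2 and 3 (adjusted p = 0.0971, 0.102 and 0.0688) and without WT replicate 1 or 2 (0.146 and 0.111).

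Ikbkb (ENSMUSG00000031537, chr8:22659212-22706589, minus strand), which encodes IKKβ, had its highest and lowest means in the same genotypes as Chuk, but edgeR did not call it. It had 81.7, 76.6 and 96.0 CPM in Tbk1 Tak1, 54.1, 71.9 and 69.4 in Tbk1+/-, and 74.8, 76.3 and 83.7 in WT, with a log2 difference of 0.12 from WT and overlapping groups. Against Tbk1+/- the groups did not overlap, and the log2 difference of 0.38 did not pass (SE 0.19, adjusted p = 0.185). The ratio of Chuk to Ikbkb CPM was 0.694, 0.782 and 0.489 in Tbk1 Tak1 and 0.210, 0.295 and 0.363 in WT. It averaged 0.234 ± 0.0745 in Tbk1 Tak1 Ripk1, 0.306 ± 0.0974 in Tbk1 Ripk1, 0.436 ± 0.0803 in Tak1ΔM/+ and 0.202 ± 0.0442 in Tbk1+/- (SD, n = 3 each). The 3 Tak1ΔM/+ values were 0.525, 0.416 and 0.368, which overlap with those of Tbk1 Tak1. The Tbk1 Tak1 ratio was 2.28-fold that of WT, and its 3 values lay above the 3 of WT. A two-sided exact permutation test gave p = 0.1, the smallest that 3 against 3 libraries can give.

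Ikbkg (ENSMUSG00000004221, chrX:74393290-74453854, plus strand), the gene of NEMO, was highest in Tbk1+/- microglia. It had 56.4, 67.2 and 83.3 CPM in Tbk1 Tak1 Ripk1, 76.1, 73.5 and 83.2 in Tbk1 Tak1, 65.0, 67.7 and 55.8 in Tbk1 Ripk1, 79.5, 70.3 and 65.7 in Tak1ΔM/+, 111, 90.4 and 106 in Tbk1+/-, and 71.7, 68.6 and 57.3 in WT. The 15 libraries outside Tbk1+/- all lay below its lowest one, and their genotypes overlapped with each other except Tbk1 Tak1, which lay above both Tbk1 Ripk1 and WT. Ikbkg fell in Tbk1 Ripk1 against Tbk1+/- by a log2 fold change of -0.71 (SE 0.15, adjusted p = 0.0367). Tbk1+/- against WT gave 0.64 (SE 0.15, unadjusted p = 0.000342), which missed the threshold (adjusted p = 0.144) and was called by DESeq2. These comparisons share the Tbk1+/- libraries. Levels of Y-linked genes were 62.3, 207 and 126 CPM in Tbk1+/-, against 0, 45.7 and 0 CPM in Tbk1 Ripk1, and with that level as a covariate the log2 fold change of the X-linked Ikbkg was -0.47 (adjusted p = 0.225). The call also ended without the libraries whose Tbk1 level went against the label (-0.59, adjusted p = 0.530), which leaves 1 Tbk1 Ripk1 library, assumed to vary like the other groups.

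Between Tbk1 Tak1 and WT, the question being what the combined loss of a Tbk1 and a Tak1 allele does, 2 of 10 members rose (Chuk and Rnf31) and 0 fell. Of all genes tested 2.31% rose and 4.11% fell. The median log2 difference was 0.32 over the members and 0.0038 over all genes tested. Libraries of both genotypes did not overlap for 6 members, with Rbck1, Sharpin, Ikbkg, Chuk and Rnf31 higher and Cyld lower, where 29.6% of all genes had no overlap. Against Tbk1+/- the same pair rose and 0 fell, beside 6.43% and 8.41% of all genes. That comparison had 5 members without overlap (Ikbkg, Ikbkb, Rnf31, Sharpin and Chuk), where the share of all genes was 33.6%. Both comparisons use the same Tbk1 Tak1 libraries. Summed astrocyte markers were at 20.9 to 28.3 CPM in Tbk1 Tak1 and 36.4 to 54.1 CPM in WT, and those of the oligodendrocyte lineage at 71.1 to 83.9 CPM in Tbk1 Tak1 and 59.5 to 63.8 CPM in Tbk1+/-, in both cases without overlap. Their part in the results was not tested.

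Heterozygosity of either gene alone gave no call by edgeR. In Tbk1+/- against WT, 0 of 10 members were called, beside 0.0521% of all genes. At an unadjusted p under 0.05 there were 3 (Ikbkg, Cyld and Chuk), a count to which that share of calls does not apply. DESeq2 called 1 (Ikbkg) and limma-voom 0. In Tak1ΔM/+ against WT, 0 were called, beside 0.0149% of all genes, with Cyld and Otulin at an unadjusted p under 0.05, and DESeq2 and limma-voom called 0. Of all 13447 genes, 1267 had an unadjusted p under 0.05 there by edgeR, DESeq2 called 82 and limma-voom 1. In Tbk1 Tak1 against Tak1ΔM/+, edgeR called 0, beside 2.92% of all genes. Rnf31 and Chuk had an unadjusted p under 0.05, DESeq2 called Rnf31, and limma-voom called 0. Levels of Y-linked genes were 2.78, 0 and 0 CPM in Tak1ΔM/+, 84.7, 89.9 and 68.1 in Tbk1 Tak1, and 116, 53.6 and 0 in WT. So genotype and Y-linked level cannot be told apart between Tbk1 Tak1 and Tak1ΔM/+. With that level as a covariate, edgeR called 117 of all genes in Tak1ΔM/+ against WT, beside 2 without it. The interaction of the alleles, the Tbk1+/- effect with Tak1ΔM/+ minus the effect without it, was 1.57 for Chuk (SE 0.47, adjusted p = 0.0948) and 0.85 for Rnf31 (SE 0.24, adjusted p = 0.0791) on the log2 scale. By edgeR 0 members were called there, beside 1.76% of all genes, with 3 at an unadjusted p under 0.05 (Chuk, Rnf31 and Ikbkg), while DESeq2 called Chuk and Rnf31 and limma-voom 0. Of all 13447 genes, 2248 had an unadjusted p under 0.05 in the interaction by edgeR, DESeq2 called 679 and limma-voom 179.

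**Figure D3:**
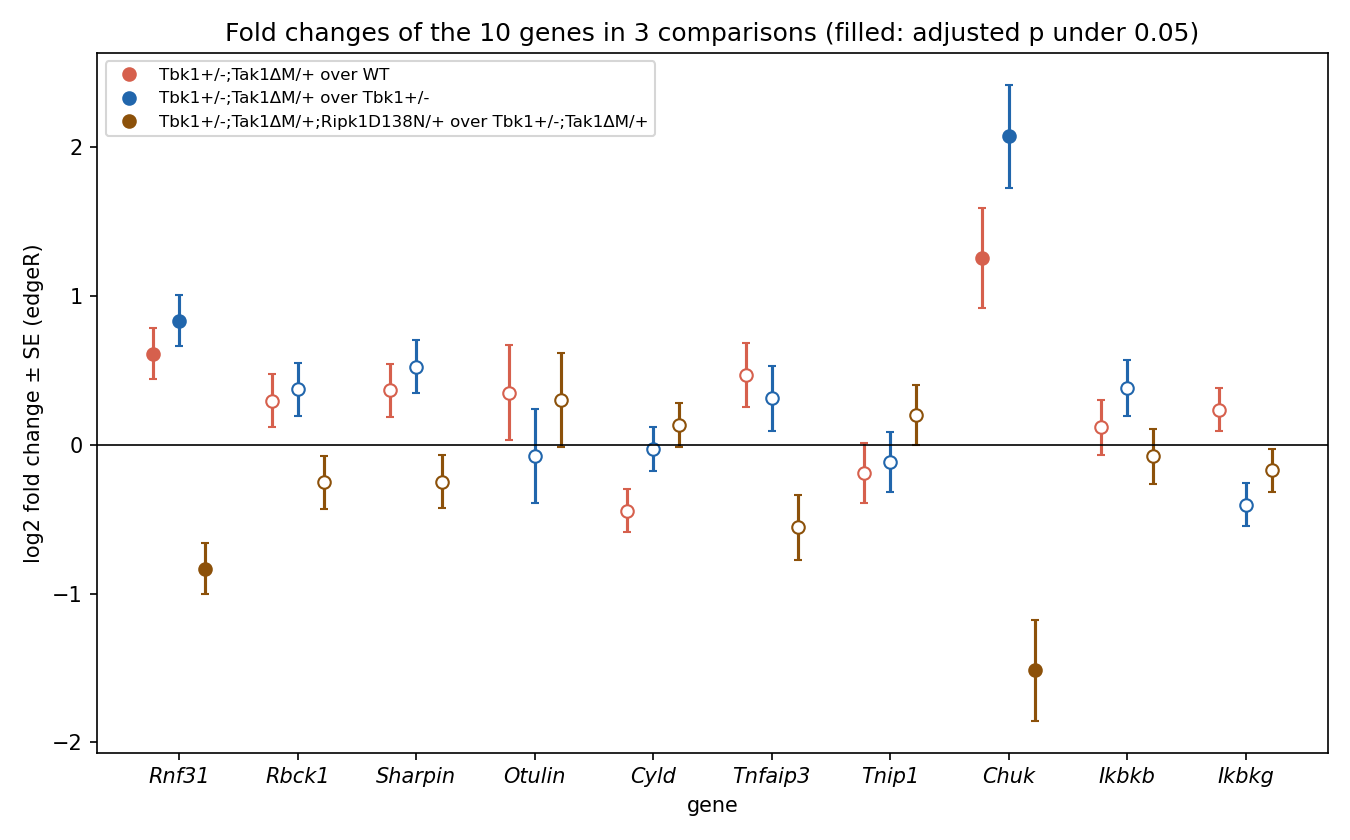
Log2 fold change of the 10 genes in Tbk1 Tak1 against WT and against Tbk1+/- and in Tbk1 Tak1 Ripk1 against Tbk1 Tak1; lines are 1 SE and filled points were called. Chuk and Rnf31 are above 0 in Tbk1 Tak1 against WT (1.25 and 0.61) and below 0 in Tbk1 Tak1 Ripk1 against Tbk1 Tak1 (-1.52 and -0.83). The comparisons share the Tbk1 Tak1 libraries and are not independent.

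In Tbk1 Tak1 microglia that also carried 1 D138N allele of Ripk1, the 2 genes that rose in Tbk1 Tak1 were lower. The rise and this fall are measured from the same Tbk1 Tak1 libraries, so they are not independent. Chuk had 28.3, 16.9 and 12.0 CPM in Tbk1 Tak1 Ripk1, against 56.7, 60.0 and 46.9 CPM in Tbk1 Tak1, and fell by a log2 fold change of -1.52 (SE 0.34, adjusted p = 0.0199). Rnf31 fell by -0.83 (SE 0.17, adjusted p = 0.0132). In both cases 3 of 3 libraries were below the Tbk1 Tak1 mean and the groups did not overlap. So 2 of 10 members fell and 0 rose, beside 0.647% and 1.91% of all genes, and 3 had no overlap (Tnfaip3, Rnf31 and Chuk), where 24.2% of all genes had none. The Tbk1 RNA level of the 3 Tbk1 Tak1 Ripk1 libraries was near that of WT, so the Ripk1 allele and the Tbk1 level cannot be told apart here. Both calls ended without Tbk1 Tak1 replicate 1 (adjusted p = 0.0785 for both) or 2 (0.0858 for Chuk and 0.0687 for Rnf31), and without Tbk1 Tak1 Ripk1 replicate 2 (0.1003 and 0.0519) or 3 (0.118 and 0.0732).

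Without the Tak1 deletion, Chuk and Rnf31 differed in the other direction, and Ikbkg was the only call. Chuk had 34.5, 23.2 and 16.5 CPM in Tbk1 Ripk1, against 13.4, 14.3 and 11.1 CPM in Tbk1+/-, a log2 difference of 0.93 (SE 0.34) that did not pass (adjusted p = 0.19), and that of Rnf31 was 0.42. With Ikbkg, 1 of 10 members fell and 0 rose, beside 0.253% and 0.283% of all genes. Against WT, edgeR called 0 members in Tbk1 Ripk1 and 0 in Tbk1 Tak1 Ripk1, beside 0% of all genes in both, with Cyld at an unadjusted p under 0.05 in each. Of all 13447 genes, 688 had an unadjusted p under 0.05 in Tbk1 Ripk1 against WT by edgeR. DESeq2 and limma-voom called 0 members in both. The difference between the 2 effects of Ripk1 D138N, with and without the Tak1 deletion, was added after the values were seen. It was -2.45 for Chuk and -1.26 for Rnf31 on the log2 scale, so that 2 of 10 members were lower and 0 higher, beside 1.39% and 2.5% of all genes. In the comparisons with WT, Chuk averaged 24.7 ± 9.10 CPM in Tbk1 Ripk1, 19.1 ± 8.34 in Tbk1 Tak1 Ripk1 and 22.9 ± 7.36 in WT.

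In 4 genotypes, Chuk was highest in the library with the lowest mitochondrial share of counts. It had 44.2 CPM at 0.453% against 33.5 and 19.6 CPM at 1.41% and 1.5% in Tak1ΔM/+, and 30.4 CPM at 0.671% against 15.7 and 22.5 CPM at 1.42% and 1.62% in WT. In Tbk1 Tak1 Ripk1 it was 28.3 CPM at 0.370% against 16.9 and 12.0 CPM at 1.10% and 1.05%. In Tbk1+/- it was 14.3 CPM at 1.82% against 11.1 and 13.4 CPM at 2.00% and 2.20%. The other 2 genotypes did not follow this pattern. Tbk1 Ripk1 had its lowest and highest Chuk at nearly the same share, 16.5 CPM at 0.449% and 34.5 CPM at 0.451%, and 23.2 CPM at 1.57%. Tbk1 Tak1 had 46.9 CPM at 0.367% and 56.7 and 60.0 CPM at 0.512% and 0.508%. With the share as a covariate, the log2 fold change of Chuk in Tbk1 Tak1 was 0.84 against WT (adjusted p = 0.224) and 1.19 against Tbk1+/- (adjusted p = 0.253), and that of Rnf31 was 0.49 (adjusted p = 0.221) and 0.59 (adjusted p = 0.341). Against Tbk1 Tak1, the falls in Tbk1 Tak1 Ripk1 were still called with that covariate, at -1.35 for Chuk (adjusted p = 0.0237) and -0.78 for Rnf31 (adjusted p = 0.0248). Outside Tbk1 Tak1, 5 libraries had shares under 0.7%, a limit set after the values were seen. Chuk was at 46.9 to 60.0 CPM in Tbk1 Tak1 and 16.5 to 44.2 CPM in these 5, and Rnf31 at 32.1 to 42.2 and 22.1 to 29.7 CPM, in both cases without overlap. As the Tbk1 Tak1 libraries lay above every other library for both genes, this lack of overlap was given in advance and decides nothing about the share. The part of the mitochondrial share in these differences was not tested further. Ikbkg differed in the same fit too: its log2 fold change in Tbk1 Ripk1 against Tbk1+/- was -0.54 with the covariate (adjusted p = 0.414), and the 3 Tbk1+/- libraries have the highest shares of all.

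**Figure D4:**
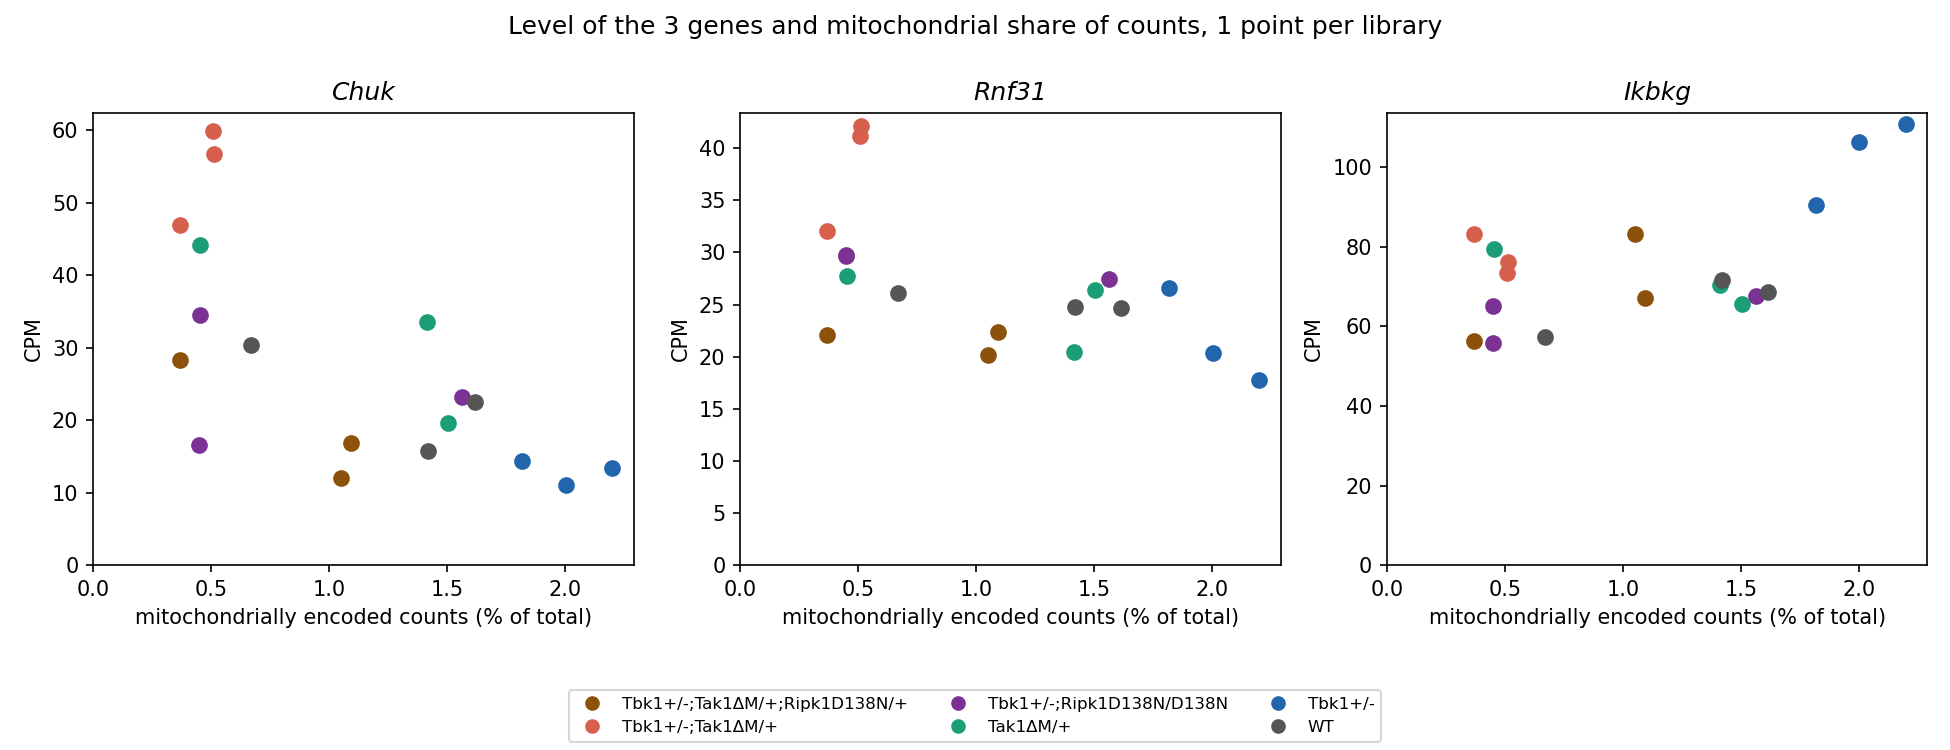
CPM of Chuk, Rnf31 and Ikbkg against the percentage of counts from mitochondrially encoded genes, 1 point per library, coloured by genotype. The Tbk1 Tak1 libraries sit at 0.367% to 0.512% and above every other library for Chuk and Rnf31, and the Tbk1+/- libraries sit at 1.82% to 2.20% with the highest Ikbkg.

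Genes that overlap members could share reads with them, since the library chemistry does not mark the strand and the counting rule for shared bases is not given in the sources used here. Irf9, a component of the interferon-activated factor ISGF3, lies on the strand of Rnf31 and shares 123 exon bases with its end. It had 63.8, 63.2 and 71.7 CPM in Tbk1 Tak1, against 54.3, 55.3 and 49.8 CPM in WT, a log2 difference of 0.32 that did not pass (adjusted p = 0.118), beside 0.61 for Rnf31. Against Tbk1+/- Irf9 rose by 0.62 (adjusted p = 0.0021), beside 0.83 for Rnf31, and in Tbk1 Tak1 Ripk1 against Tbk1 Tak1 it differed by -0.25 (adjusted p = 0.319), beside -0.83. G6pdx, which encodes the first enzyme of the pentose phosphate pathway, lies on the strand opposite to Ikbkg and shares 418 exon bases with it. It averaged 237 ± 8.19 CPM in Tbk1 Ripk1 and 259 ± 77.4 CPM in Tbk1+/-, a log2 difference of -0.13 (adjusted p = 0.763), beside -0.71 for Ikbkg. In Tbk1 Tak1 against Tbk1+/-, G6pdx fell (log2 fold change -0.61, adjusted p = 0.018), beside -0.40 for Ikbkg (adjusted p = 0.0701). Ank overlaps Otulin without a shared exon base. No annotated gene overlaps Chuk or lies within 1000 bases of it.

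**Figure D5:**
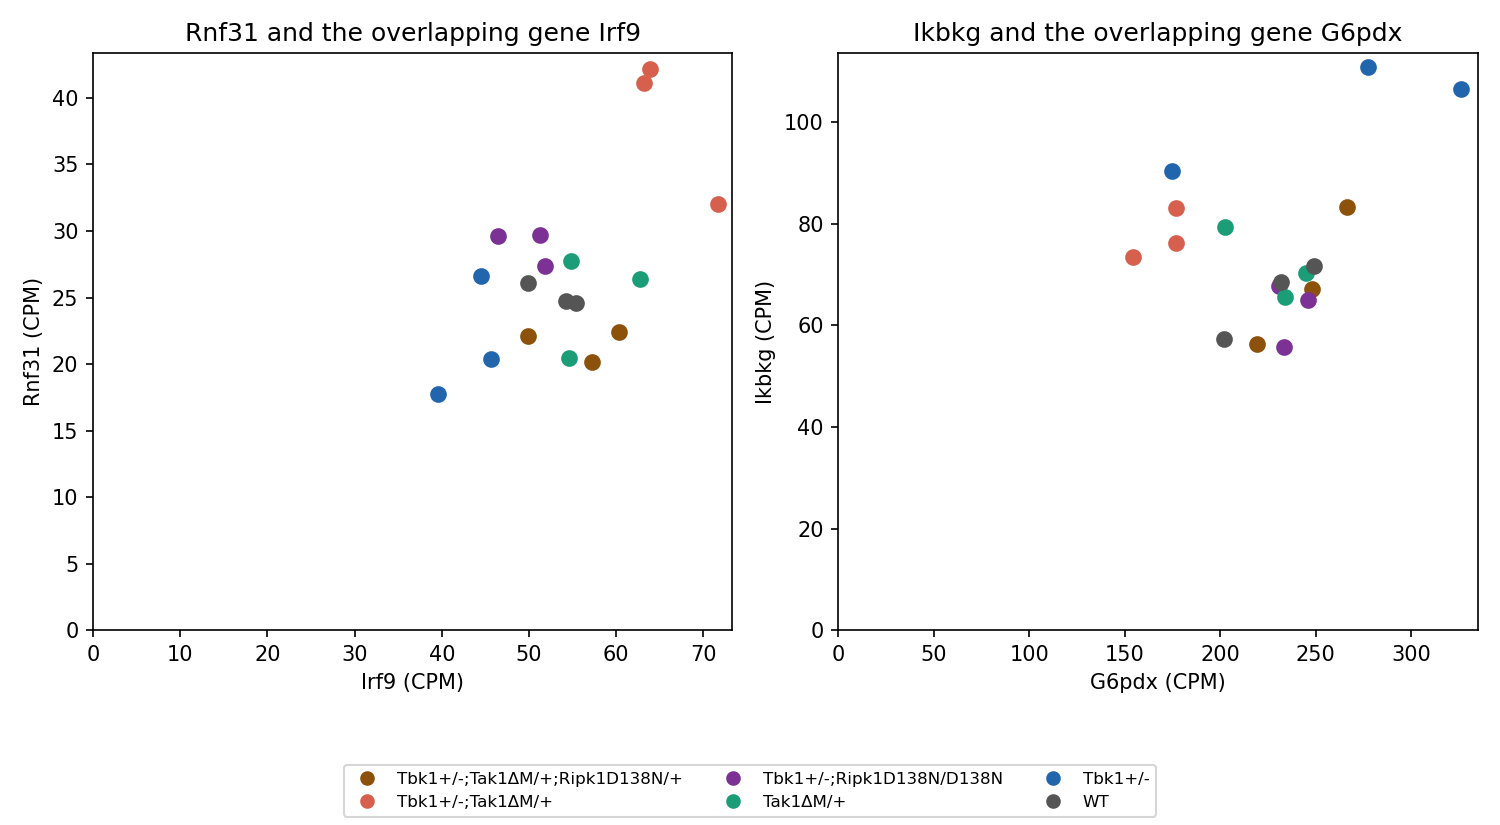
CPM of Rnf31 plotted against CPM of Irf9, and CPM of Ikbkg against CPM of G6pdx, 1 point per library, coloured by genotype. In Tbk1 Tak1, Rnf31 is at 32.1 to 42.2 CPM and Irf9 at 63.2 to 71.7 CPM, against 24.6 to 26.1 and 49.8 to 55.3 CPM in WT.

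Partners of the 10 genes were read from 3 lists of 45 genes in all, each of which was tested. The lists, too, were chosen with earlier results of these data known. Of 16 genes of linear ubiquitin and A20 partners, 0 were called in Tbk1 Tak1 against WT by edgeR, with 4 at an unadjusted p under 0.05. Those 4 were not set against the share of all genes at that p. The list's median log2 difference was 0.0096, beside 0.0038 over all genes. Against Tbk1+/- 1 rose and 1 fell, where 6.43% of all genes rose and 8.41% fell. Otulinl, a relative of Otulin, averaged 136 ± 1.75 CPM in Tbk1 Tak1 and 70.2 ± 20.1 CPM in Tbk1+/- (log2 fold change 0.96, adjusted p = 0.0148). Tax1bp1, an adaptor of A20, averaged 180 ± 14.4 and 239 ± 24.5 CPM in the same order (-0.41, adjusted p = 0.0206). Rnf11, another A20 partner, and the ubiquitin-conjugating enzyme gene Ube2d3 had overall adjusted p = 0.128 and 0.170.

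Of 18 genes of the TNF receptor complex and its kinases, 2 rose and 1 fell in Tbk1 Tak1 against WT, where 2.31% of all genes rose and 4.11% fell. Ripk1 averaged 58.6 ± 11.3 CPM in Tbk1 Tak1 and 19.96 ± 3.52 CPM in WT (log2 fold change 1.55, adjusted p = 0.0407). Tnf averaged 36.2 ± 0.548 CPM in Tbk1 Tak1 and 14.2 ± 2.03 CPM in WT (1.35, adjusted p = 0.0489). The gene that fell was Tbk1, the targeted one (-1.01, adjusted p = 0.0207). The median of the list was 0.03. Against Tbk1+/-, Ripk1, Tnf and Map3k8, an upstream kinase of the MAP kinase pathway, rose by 1.70, 1.95 and 1.12, and Tank, an adaptor of TBK1, fell by -0.53, beside the same 6.43% and 8.41% of all genes. In Tbk1 Tak1 Ripk1 against Tbk1 Tak1, the 1 gene called was Tbk1 (0.96, adjusted p = 0.0454), where 1.91% of all genes rose and 0.647% fell.

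Of 11 genes of NF-κB subunits and inhibitors, 0 were called in Tbk1 Tak1 against WT by edgeR, with 4 at an unadjusted p under 0.05. Those 4 were not set against the share of all genes at that p. The list's median log2 difference was 0.46. Against Tbk1+/- 4 rose and 0 fell, with a median of 0.63, beside 6.43% and 8.41% of all genes. Over all genes that comparison had 1995 calls, and 55 with the mitochondrial share in the fit. In the fit without that share, the 4 list genes that rose were Nfkbid (13.9 ± 1.79 CPM in Tbk1 Tak1 and 5.43 ± 0.733 in Tbk1+/-, adjusted p = 0.00642), the subunit genes Rela (133 ± 17.9 and 85.7 ± 7.45 CPM, adjusted p = 0.0165) and Nfkb2 (86.8 ± 7.97 and 47.7 ± 10.5 CPM, adjusted p = 0.015), and Bcl3 (6.96 ± 2.51 and 2.28 ± 0.617 CPM, adjusted p = 0.0498). Their values with the share in the fit are not given here. Nfkb2, which encodes the precursor that IKKα directs to processing, was also the gene of this list called in Tbk1 Tak1 against Tak1ΔM/+ (log2 fold change 0.94, adjusted p = 0.0313), where 2.92% of all genes were called. In Tbk1 Ripk1 against Tbk1+/-, where 0.283% of all genes rose, Nfkbid rose by 1.39 (adjusted p = 0.0474).

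Over the 18 libraries, the genes with the profile nearest to a called member were found by the root mean square difference in log2 CPM, each gene centred on its own mean, among 8931 genes that averaged 5 CPM or more. Nearest to Chuk were Lonp1 (0.31), Dot1l (0.32) and Pcbd2 (0.34), beside a median of 0.80 over all genes and a spread of 0.75 of Chuk around its own mean. Nearest to Rnf31 were Wdr46, Bms1 and Jmjd1c (0.18 each), where the median was 0.44 and its own spread 0.32. For Ikbkg they were 4933434E20Rik (0.14), Mcfd2 (0.15) and Lhfpl2 (0.15), beside a median of 0.41 and its own spread of 0.27.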

How the data were processed

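RNA of cultured microglia was sequenced in 18 libraries by Smart-seq2 from 1 ng of total RNA with 12 cycles of PCR, as paired reads of 50 bases, per the labels' protocols. The deposited table holds raw counts per gene; STAR, featureCounts and mm10 are named in the submitters' processing notes, whereas the labels' protocols name RSEM, and versions, annotation and strand setting are not given in the sources used here. Amplified reads carry no molecular identifiers, so the counting error at a given depth is a lower bound on the spread between libraries. Symbols came from GENCODE M21 (GRCm38) for 50462 of 50686 identifiers; the other 224 held at most 0.00437% of a library's counts.

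Genes were filtered with filterByExpr, scaled by TMM and tested with the quasi-likelihood test of edgeR 4.0.16 in R 4.3.3, in 1 fit of 18 libraries with a mean per genotype. Benjamini-Hochberg adjustment ran over the 13447 genes of a comparison, and genes with an adjusted p under 0.05 were called. CPM are counts per 1000000 of the TMM-scaled total, and SDs are over 3 libraries. Alternatives used DESeq2 1.42.0, limma-voom (limma 3.58.1), other filters and scaling, covariates and leaving out libraries. Scripts were tested on simulated data. Named are the 10 members, the targeted genes, overlapping genes, the genes nearest to called members, and from each list the called genes and the 4 with the smallest overall p. Members and lists were chosen with earlier results of these data known.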

Additional observations from a re-analysis of the deposited data

Results flagged for a closer look

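The differences of Chuk and Rnf31 between microglia with and without Ripk1 D138N had opposite signs in the genotypes with and without the Tak1 deletion, and the test of that contrast passed. The log2 fold change of Tbk1 Tak1 Ripk1 against Tbk1 Tak1, minus that of Tbk1 Ripk1 against Tbk1+/-, was -2.45 for Chuk (SE 0.48) and -1.26 for Rnf31 (SE 0.24), each with adjusted p = 0.011 by edgeR. The parts were -1.52 and 0.93 for Chuk and -0.83 and 0.42 for Rnf31, with 3 of 3 libraries on the side of each sign. The positive parts did not pass on their own (adjusted p = 0.19 for Chuk and 0.24 for Rnf31). The genotypes differ in the number of D138N alleles as well as in Tak1. This contrast, added after the values were seen, uses the 5 libraries whose Tbk1 level went against the label, and their part in it was not tested. With the mitochondrial share as a covariate, the values were -1.62 for Chuk (adjusted p = 0.328) and -1.02 for Rnf31 (adjusted p = 0.286).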

How the results depend on the processing

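Of 248 alternative values for the calls of Chuk, Rnf31 and Ikbkg, 198 kept direction and call, 50 kept the direction without the call, and 0 changed sign. These values are not independent, as the calls share libraries. For each call 18 of them left out 1 library, often one outside the comparison. Such a fit keeps the compared libraries and could hardly change the sign. The number of members called moved as follows, and the causes were not tested. The covariate for the mitochondrial share left 0 in the overall test, in Tbk1 Tak1 against WT and against Tbk1+/-, in Tbk1 Ripk1 against Tbk1+/- and in the added comparison of Ripk1 effects. Calls over all genes fell with it too, from 1021 to 225 in the test across genotypes. They fell from 72 to 1 in Tbk1 Ripk1 against Tbk1+/- and from 523 to 4 in the added comparison. DESeq2 called 1 in Tbk1+/- against WT, 4 in Tbk1 Tak1 against Tbk1+/-, 1 in Tbk1 Tak1 against Tak1ΔM/+ and 2 in the interaction. Over all genes DESeq2 called 679 in the interaction, beside 236 by edgeR, and 2277 in the test across genotypes, beside 1021. Without a filter the counts were 2, 1, 1, 1 and 2 in Tbk1+/- against WT, Tbk1 Tak1 against WT and against Tak1ΔM/+, the interaction, and Tbk1 Ripk1 against Tbk1+/-. Of the 26917 genes in that fit, 927 were called in the interaction and 754 in Tbk1 Ripk1 against Tbk1+/-. With the filter these were 236 and 72 of 13447. Limma-voom called 1 in Tbk1 Tak1 against WT, and a filter at a mean of 5 CPM called 1 in Tbk1 Tak1 against Tak1ΔM/+. Without the libraries whose Tbk1 level went against the label the count was 1 in Tbk1 Tak1 against WT and 0 in Tbk1 Ripk1 against Tbk1+/-. It was also 0 there in a fit of only the libraries compared and with the Y-linked level as a covariate, which gave 2 in the interaction. Over all genes these fits called 0 and 15 there, and the Y-linked covariate gave 784 in the interaction. That fit without the libraries of doubtful label was not run for the overall test or for comparisons with Tbk1 Tak1 Ripk1.

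With the replicate block, 1 member was called in Tbk1 Tak1 against WT and 0 in Tbk1 Ripk1 against Tbk1+/-; no other count of calls moved by over 1.5 times. Libraries with the same number correlated with a median r of -0.0048 over 45 pairs (5 over 0.1), so the numbers were not taken as pairs.

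Leaving out 1 library at a time gave 1 to 4 members in the overall test, 0 to 1 in Tbk1+/- against WT, 0 to 2 in Tbk1 Tak1 against WT, 2 to 4 against Tbk1+/- and 0 to 1 against Tak1ΔM/+. It gave 0 to 1 in the interaction, 0 to 2 in Tbk1 Ripk1 against Tbk1+/-, 0 to 2 in Tbk1 Tak1 Ripk1 against Tbk1 Tak1, 2 to 3 in the added comparison and 0 in the rest. Over all genes, such fits called 383 to 1414 in the test across genotypes. They called 71 to 737 in the interaction and 178 to 1003 in the added comparison. The log2 ratio of Chuk to Ikbkb in Tbk1 Tak1 minus WT was 1.19, with a range of 0.97 to 1.38. The call of Rnf31 in Tbk1 Tak1 against WT ended without WT replicates 1, 2 or 3 (adjusted p = 0.132, 0.14 and 0.0845), Tbk1 Tak1 replicates 1 or 2 (0.172 and 0.143), Tak1ΔM/+ replicate 3 (0.0531), Tbk1+/- replicate 3 (0.0511), or any Tbk1 Ripk1 (0.059, 0.0511 and 0.0608) or Tbk1 Tak1 Ripk1 library (0.054, 0.0592 and 0.0557). The call of Ikbkg in Tbk1 Ripk1 against Tbk1+/- ended without Tbk1+/- replicates 1 or 3 (0.139 and 0.136), Tbk1 Ripk1 replicates 1 or 3 (0.152 and 0.17), any Tbk1 Tak1 library (0.0603, 0.0543 and 0.0533), Tak1ΔM/+ replicate 2 (0.051) or WT replicate 1 (0.051).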

Other observations

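Outside Tbk1 Tak1, Ikbkb was the only member that split by the mitochondrial share of counts, and the ranges of all the others overlapped. It had 83.7 to 96.9 CPM in the 5 libraries under 0.7% and 53.1 to 80.6 CPM in the 10 above it, while the 3 Tbk1 Tak1 libraries had 76.6 to 96.0 CPM. The limit was set after the values were seen, and the difference was not tested. How many of all genes split in this way was not counted, so the split cannot be called particular to Ikbkb.

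Ripk1 RNA averaged 37.1 ± 21.6 CPM in Tbk1 Tak1 Ripk1, 58.6 ± 11.3 in Tbk1 Tak1, 29.8 ± 17.5 in Tbk1 Ripk1, 32.7 ± 16.6 in Tak1ΔM/+, 18.03 ± 4.03 in Tbk1+/- and 19.96 ± 3.52 in WT (SD, n = 3 each).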
